A study of Caenorhabditis elegans with 2 samples.

Results

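The nuclear tRNA genes of Caenorhabditis elegans were examined for peaks of GFP-tagged XBP-1. All genes of biotype tRNA on the 6 nuclear chromosomes of WBcel235 were taken, which gave 612 of the 46890 annotated nuclear genes; 22 mitochondrial tRNA genes were left out. A gene was counted as reached when a peak summit lay in its body or within 200 bp of either end, a window with a median length of 472 bp around a median gene of 72 bp.

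The data are chromatin immunoprecipitation with sequencing (ChIP-seq) from whole hermaphrodite L1 larvae of strain OP506. These animals carry the mutation unc-119(tm4063) on chromosome III and the integrated transgene wgIs506, and they make XBP-1 with GFP and FLAG at its C-terminus. Precipitation was with an antibody to GFP (1 label field names xbp-1 instead), on sonicated chromatin of larvae sampled 6 h after they had been synchronized by bleaching and starvation. There were 2 biological replicates in 1 group, and every animal carried the transgene; the control named in the labels was not used here. The thresholded list held 3641 regions, which were exactly the 3641 strongest of the 26088 regions in the pooled relaxed list, and the relaxed lists of replicate 1 and replicate 2 held 30000 and 28535. A relaxed list mixes peaks with background by design. The lists carry no read totals, so the depth is unknown, and the 95% Wilson intervals below cover counting error over genes or summits only. Because neighbouring genes can share a summit, genes are not fully independent counts.

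XBP-1 is the basic leucine zipper transcription factor of the unfolded protein response of the endoplasmic reticulum. A tRNA gene is read by RNA polymerase III from a promoter inside the gene: the factor TFIIIC holds the A box and the B box, which become the D arm and the T arm of the tRNA, and places TFIIIB just upstream of the start, where it recruits the polymerase. Transcription ends at a run of T shortly after the gene. tRNA genes are dispersed, and many in C. elegans lie on the X chromosome or within introns of protein-coding genes.

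Sequences of 4 strongly reached tRNA genes are shown, each followed by a gene with the identical tRNA sequence and no summit in any of the 4 lists, so that the flanks can be compared while the gene is the same. K11H12.t1, the single gene for selenocysteine tRNA, closes the set. Each run gives 60 bases before the gene, the gene, and 20 bases after it, 5′ to 3′ on the gene's strand, from the RefSeq sequence of WBcel235. Capitals mark TNGNNNA from base 8 of the gene (A box letters) and GTTCNA (B box letters); K11H12.t1 lacked the first at that base.
F46G11.t2, tRNA-Pro, reached, chrX:5801191-5801342, minus strand: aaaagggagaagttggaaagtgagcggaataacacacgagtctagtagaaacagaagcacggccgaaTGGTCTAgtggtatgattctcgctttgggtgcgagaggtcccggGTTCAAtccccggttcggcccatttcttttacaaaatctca
R11G10.t2, tRNA-Pro, no summit, chrV:13507183-13507334, minus strand: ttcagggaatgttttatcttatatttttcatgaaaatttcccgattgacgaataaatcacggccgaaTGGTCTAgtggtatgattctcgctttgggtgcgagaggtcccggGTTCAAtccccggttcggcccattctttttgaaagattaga
C33G3.t2, tRNA-Lys, reached, chrX:14063926-14064078, minus strand: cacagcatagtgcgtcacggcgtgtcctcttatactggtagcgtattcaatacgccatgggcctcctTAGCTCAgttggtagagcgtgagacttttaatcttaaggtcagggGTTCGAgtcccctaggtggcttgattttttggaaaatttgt
ZK994.t2, tRNA-Lys, no summit, chrV:8499544-8499696, minus strand: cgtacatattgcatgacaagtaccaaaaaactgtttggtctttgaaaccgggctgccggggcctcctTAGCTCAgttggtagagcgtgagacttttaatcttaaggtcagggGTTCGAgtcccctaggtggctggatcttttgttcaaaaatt
T28B4.t1, tRNA-Phe, reached, chrX:6593536-6593688, plus strand: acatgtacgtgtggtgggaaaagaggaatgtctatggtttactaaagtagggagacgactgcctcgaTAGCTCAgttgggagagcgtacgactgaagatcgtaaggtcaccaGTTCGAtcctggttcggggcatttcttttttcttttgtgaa
Y66D12A.t1, tRNA-Phe, no summit, chrIII:11554765-11554917, plus strand: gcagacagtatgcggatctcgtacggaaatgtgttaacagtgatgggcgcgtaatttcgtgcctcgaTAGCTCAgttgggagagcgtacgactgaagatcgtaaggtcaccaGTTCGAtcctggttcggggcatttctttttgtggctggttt
C04E7.t1, tRNA-Leu, reached, chrX:353235-353396, minus strand: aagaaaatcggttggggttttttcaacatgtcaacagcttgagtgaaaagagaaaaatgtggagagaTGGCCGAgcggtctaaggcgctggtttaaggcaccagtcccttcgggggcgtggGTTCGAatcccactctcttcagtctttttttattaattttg
D1009.t2, tRNA-Leu, no summit, chrX:8939490-8939651, plus strand: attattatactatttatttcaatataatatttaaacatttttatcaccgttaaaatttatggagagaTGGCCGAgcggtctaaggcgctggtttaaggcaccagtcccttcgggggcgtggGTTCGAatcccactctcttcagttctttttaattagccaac
K11H12.t1, tRNA-Sec, reached, single copy, chrIV:658121-658286, plus strand: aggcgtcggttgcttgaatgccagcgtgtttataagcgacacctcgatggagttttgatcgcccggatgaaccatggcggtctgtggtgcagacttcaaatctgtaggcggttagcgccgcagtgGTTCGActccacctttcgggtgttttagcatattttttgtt
Upstream of the gene these pairs had little in common. F46G11.t2 and R11G10.t2 were identical at 19 of the 60 upstream positions, C33G3.t2 and ZK994.t2 at 13, T28B4.t1 and Y66D12A.t1 at 13, and C04E7.t1 and D1009.t2 at 21.

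A thresholded summit reached 195 of the 612 tRNA genes, or 31.9% (28.3 to 35.7%). Consecutive genome windows of 472 bp held one in 1.69% of cases, and 7.03% of all annotated nuclear genes had one in the body or within 200 bp. Those genes include 15363 piRNA genes, at 0.215%. Protein-coding genes, with a median length of 2027 bp, stood at 11.1%. In the pooled relaxed list 393 tRNA genes were reached (64.2%, 60.3 to 67.9%), against 11.6% of genome windows. Replicate 1 alone reached 400 (65.4%, against 13.3% of windows) and replicate 2 alone 383 (62.6%, against 12.9%). Both replicate lists reached 334 genes (54.6%, 50.6 to 58.5%), while 155 genes had no summit in any of the 4 lists.

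The tRNA pseudogenes, copies that are annotated as not functional, were reached far less. Of 209 such pseudogenes, 2 had a thresholded summit (0.957%, 0.263 to 3.42%) and 17 a pooled relaxed one (8.13%, 5.14 to 12.6%). The shares of genome windows, 1.69% and 11.6%, lay within these intervals. On chromosome V, which held 91 of them, none had a thresholded summit and 5 a relaxed one, whereas 17 of the 78 tRNA genes there had a thresholded summit. Among other short RNA genes, 24 of 129 snRNA genes (18.6%), 85 of 346 snoRNA genes (24.6%), 12 of 261 miRNA genes (4.60%) and 33 of 15363 piRNA genes (0.215%) had a thresholded summit in the same kind of window. The intervals of the tRNA share and the snoRNA share (20.3 to 29.4%) overlapped slightly, and those of tRNA and snRNA genes (12.8 to 26.2%) did not.

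The 195 reached genes were served by 184 distinct summits, 13 of which served 2 genes each. They were 5.05% of the thresholded list in windows that cover 0.272% of the genome, a density of 674 summits per Mb against 36.3 per Mb genome-wide. The signal value, which the authors' caller assigned on a scale that is not stated, was compared within lists only. At tRNA genes it ran from 73.3 to 624 with a median of 134, where the median of the whole list was 148 and its highest value 34888. The strongest tRNA summit ranked 184, the median rank was 2021 and the weakest ranked 3639. None of the 100 strongest regions lay at a tRNA gene. The share was 1.25% (5 of 400) at ranks 101 to 500, 3.6% (18 of 500) at ranks 501 to 1000, 6.8% (68 of 1000) at ranks 1001 to 2000 and 5.67% (93 of 1641) below that.

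Going down the pooled list by signal value, the 1000 strongest regions reached 29 tRNA genes (4.74%), the 2000 strongest 99 (16.2%), the 5000 strongest 245 (40.03%) and the 10000 strongest 308 (50.3%). The same depths reached 0.469%, 0.933%, 2.31% and 4.54% of genome windows. From 10000 to all 26088 regions 85 further tRNA genes were added, which brought the share to 64.2%, while genome windows rose to 11.6%.

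**Figure D1:**
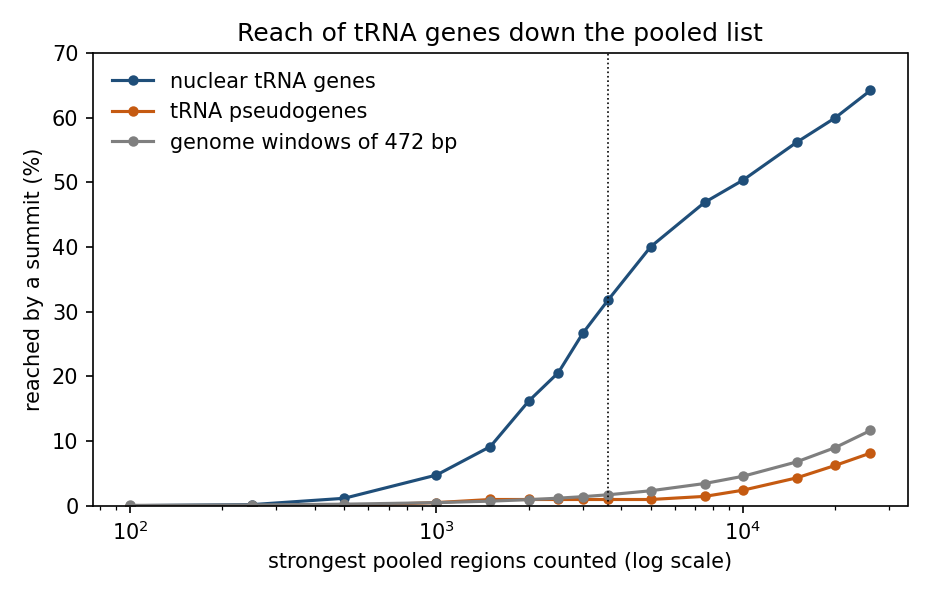
Share of 612 tRNA genes, 209 tRNA pseudogenes and consecutive genome windows of 472 bp with a summit (vertical axis, percent) against the number of strongest pooled regions counted (horizontal axis, log scale). The dotted line marks the 3641 regions of the thresholded list, where tRNA genes stood at 31.9%, genome windows at 1.69% and pseudogenes at 0.957%.

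Summits sat just upstream of the tRNA gene. The median position of the 184 thresholded summits was 23 bp upstream of the 5′ end of the nearest tRNA gene, with quartiles at 33.25 and 8 bp upstream and a full range from 116 bp upstream to 132 bp downstream of that end. Of the 184, 148 (80.4%) lay upstream of the gene, 34 (18.5%) in its body and 2 (1.09%) beyond its 3′ end. Around the 376 isolated genes, 102 thresholded summits fell in the 50 bp before the 5′ end, 22 in the first 50 bp from it, and 7 from 100 to 51 bp upstream. No thresholded summit fell from 150 to 499 bp downstream of the 5′ end.

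The pooled relaxed list contains the 3641 thresholded regions, so its summits share their place in part by construction. It also showed a further, smaller group downstream. Its 406 summits at tRNA genes had a median of 15 bp upstream. In the 50 bp before the 5′ end of isolated genes it held 161, where the thresholded list held 102. From 175 to 224 bp downstream of the 5′ end there were 23 relaxed summits around isolated genes, 11 and 12 in successive bins of 25 bp, where the bins from 100 to 149 bp held 3 and 5. This downstream group was noticed in the profile and was not tested.

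**Figure D2:**
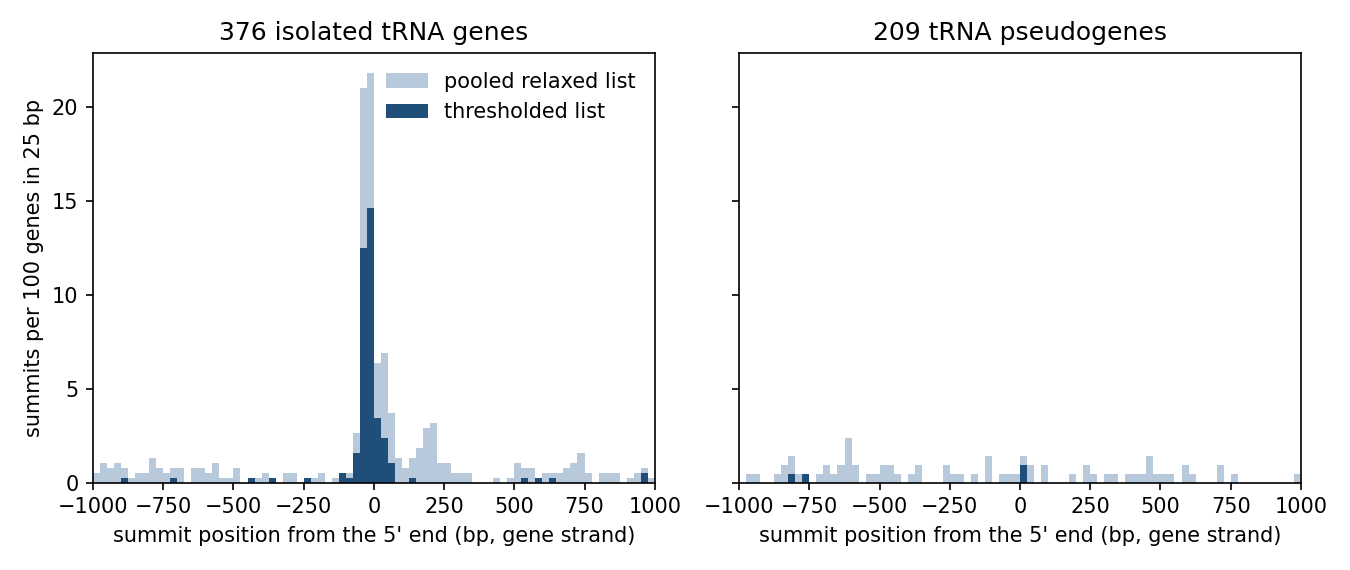
Summits per 100 genes in bins of 25 bp (vertical axis) against distance from the 5′ end along the gene's strand (horizontal axis, bp), for 376 isolated tRNA genes (left) and 209 tRNA pseudogenes (right). Thresholded summits peak at 14.6 per 100 isolated genes in the bin from 25 to 1 bp upstream, while no pseudogene bin within 200 bp exceeds 0.957 per 100 in that list.

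Most tRNA genes have an exact copy elsewhere, and the sources used here do not say how reads that match several places were treated. Such treatment can lower coverage in a copied gene body relative to its flanks and so bears on where a summit is placed; its part in the upstream position was not tested. The 612 genes had 200 distinct sequences, and 143 genes had no exact copy. Of these 143, 33 had a thresholded summit (23.1%, 16.9 to 30.6%), against 162 of 469 with copies (34.5%, 30.4 to 39.0%). Where the nearest tRNA gene had no copy, the median summit position was 27 bp upstream.

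Identical genes were reached unequally. Of 57 families of 2 or more identical genes, 42 held both reached and unreached members, 4 were reached throughout and 11 not at all. In each of the 20 families of 10 or more members both kinds occurred, with shares from 20% in a family of 15 tRNA-Gln genes to 53.3% in a family of 15 tRNA-Ala genes. Over all 469 genes with copies the share was 34.5%, and at such a share most large families would hold both kinds. Among the largest, 7 of 29 tRNA-Gly genes, 10 of 25 tRNA-Lys genes and 8 of 24 tRNA-Pro genes with the same sequence were reached. In a family of 7 tRNA-Leu genes none was, though 3 had a pooled relaxed summit, against 69.1% of all genes with copies.

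By amino acid, the share ranged from 20% for tRNA-Asn (4 of 20) and tRNA-His (4 of 20) to 41.5% for tRNA-Glu (17 of 41), leaving aside the lone tRNA-Sec gene. The intervals of these extremes overlapped (8.07 to 41.6% and 27.8 to 56.6%), and so did all others in the thresholded list. In the pooled relaxed list the shares ran from 45% for tRNA-His (9 of 20, 25.8 to 65.8%) to 83.9% for tRNA-Val (26 of 31, 67.4 to 92.9%), intervals that did not overlap. RefSeq named the amino acid for 607 of the 612 genes.

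Reached and unreached genes held the inner boxes at similar shares. The A box letters were present in 93.3% of reached genes, 90.6% of the others and 85.2% of those in no list (78.7 to 89.9%, against 88.9 to 96.1% in reached genes). GTTCNA was present in 95.9%, 96.2% and 94.8% of the same sets, and the longer B box core GGTTCGA in 65.6%, 64.0% and 63.9%. TTTT within 25 bp after the end, the terminator, was found in 99.5%, 98.3% and 96.1%. All were read on the gene's strand. In consecutive genome windows as long as a tRNA gene, the A box letters at base 8 occurred in 3.83%, GTTCNA in 14.5% and GGTTCGA, which contains GTTCNA letters, in 0.502%; TTTT occurred in 31.2% of windows of 25 bp. Pseudogenes held the A box letters together with GTTCNA in 66.5% of cases, tRNA genes in 87.7%; GGTTCGA alone was in 67.5% of pseudogenes and 64.5% of tRNA genes.

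Base composition upstream did differ in level. The G+C content of the 100 bp before the gene was 46.2 ± 6.66% (SD, n = 195 genes) for reached genes, 40.4 ± 7.50% (n = 198) for genes with a relaxed summit only and 38.1 ± 7.98% (n = 219) for genes with no pooled summit. Within the gene it was 58.2 to 58.3% in all 3 sets. Sets of genes were not tested against each other here, and the part of G+C content in the peak calls was not tested.

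Short words known as sites of bZIP and basic helix-loop-helix factors, and a GA repeat, were no more frequent at tRNA summits than in the whole list. In the 50 bp on either side of the summit, read on both strands, TGACGTG was found at 0 of 184 tRNA summits, which allows a share of up to 1.63%, against 125 of all 3641 (3.43%, 2.89 to 4.08%). CACGTG, which shares its last letters with that word, was found at 3 (1.63%, 0.556 to 4.68%) against 5.47%. TGACGTCA was found at 1 (0.543%) against 1.68%. GAGAGAGA was found at 6 (3.26%, 1.50 to 6.93%) against 6.62%. Outside promoter windows, 135 tRNA summits were set beside 1111 other summits. There TGACGTG was found at 0 against 3.69%, and TGACGTCA at 1 (0.741%) against 2.07%. CACGTG was found at 2 (1.48%, 0.407 to 5.24%) against 7.65% (6.23 to 9.36%). GAGAGAGA was found at 4 of these 135 (2.96%, 1.16 to 7.37%) against 10.3% (8.61 to 12.2%). A missing word says only that these letters were not in the window.

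The X chromosome held 276 of the tRNA genes, 15.6 per Mb, against 3.73 to 4.64 per Mb on the autosomes. The share reached was nonetheless similar there: 90 of 276 on X (32.6%, 27.3 to 38.3%), 18 of 66 on I (27.3%), 20 of 57 on II (35.1%), 28 of 64 on III (43.8%, 32.3 to 55.9%), 22 of 71 on IV (31.0%) and 17 of 78 on V (21.8%, 14.1 to 32.2%). Chromosome III was highest and V lowest, and their intervals just failed to overlap. Genome windows were also highest on III and lowest on V, with 2.24% on III, 2.12% on I, 1.72% on X, 1.61% on II, 1.58% on IV and 1.13% on V. In the relaxed list the range was from 54.5% on I to 71.9% on III, with overlapping intervals.

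Isolated genes were reached more often than clustered ones. A gene was isolated when no other tRNA gene lay within 1000 bp. Of 376 isolated genes 138 had a thresholded summit (36.7%, 32.0 to 41.7%), and of 236 clustered genes 57 (24.2%, 19.1 to 30.0%). In the relaxed list the shares were 68.6% (63.8 to 73.1%) and 57.2% (50.8 to 63.4%). By cluster size the thresholded counts were 42 of 156 genes in clusters of 2, 8 of 42 in clusters of 3, 3 of 16 in clusters of 4, 1 of 10 in clusters of 5 and 3 of 12 in clusters of 6.

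Reach is given by orientation and by locus. Among clusters of 2, of 37 head-to-head pairs, with a median gap of 160 bp between genes, 5 had both genes reached, 2 had 1 gene reached and 30 had neither. Of 26 same-strand pairs the counts were 5, 6 and 15, and of 15 tail-to-tail pairs 4, 6 and 5. In the cluster of 6 genes F22F1.t2 to F22F1.t7 on X, 3 were reached, for tRNA-Ser (F22F1.t4), tRNA-Asp (F22F1.t5) and tRNA-Ile (F22F1.t7), through 2 summits. None of the 6 tRNA-His genes F28H6.t2 to F28H6.t7 on X was reached, and 1 of them had a relaxed summit. Of 2 clusters of 5 genes, the one at K01A12 had none reached. The other, 5 tRNA-Gln genes in an intron of ajm-1, which encodes an apical junction protein, had 1 reached, H08J11.t3.

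An intronic position made little difference. Of 283 tRNA genes lying in an intron of a protein-coding gene 89 were reached (31.4%, 26.3 to 37.1%), and of 319 intergenic genes 102 (32.0%, 27.1 to 37.3%); another 10 genes overlapped a protein-coding gene in other ways. Isolated intronic and isolated intergenic genes stood at 36.7% and 36.3%. On the host's strand 46 of 161 were reached (28.6%, 22.2 to 36.0%) and on the opposite strand 43 of 122 (35.2%, 27.3 to 44.1%), with overlapping intervals. Among genes with no exact copy, 12 of 66 intronic genes (18.2%) and 20 of 74 intergenic genes (27.0%) were reached; the intronic share of this subset was below the 31.4% of all intronic genes by more than 1.5 times.

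The hosts had a promoter peak at a share close to that of all protein-coding genes. A promoter window ran from 1000 bp upstream to 200 bp downstream of a protein-coding transcript start. Of 219 host genes 36 had a thresholded summit there (16.4%, 12.1 to 21.9%), against 15.5% of the 19973 protein-coding genes. Of the 89 reached intronic tRNA genes 70 (78.7%, 69.0 to 85.9%) lay in hosts with none, as did 235 of all 283 intronic ones (83.0%). Where the host had a promoter summit 19 of 48 tRNA genes were reached (39.6%, 27.0 to 53.7%), and where it had none 70 of 235 (29.8%, 24.3 to 35.9%), with overlapping intervals. The same summit can count for the tRNA gene and for its host's promoter, as at K11H12.t1 and R04A9.t1. This split is therefore in part fixed by definition. With summits outside promoter windows only, 73 of the 283 intronic genes were reached (25.8%).

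**Figure D3:**
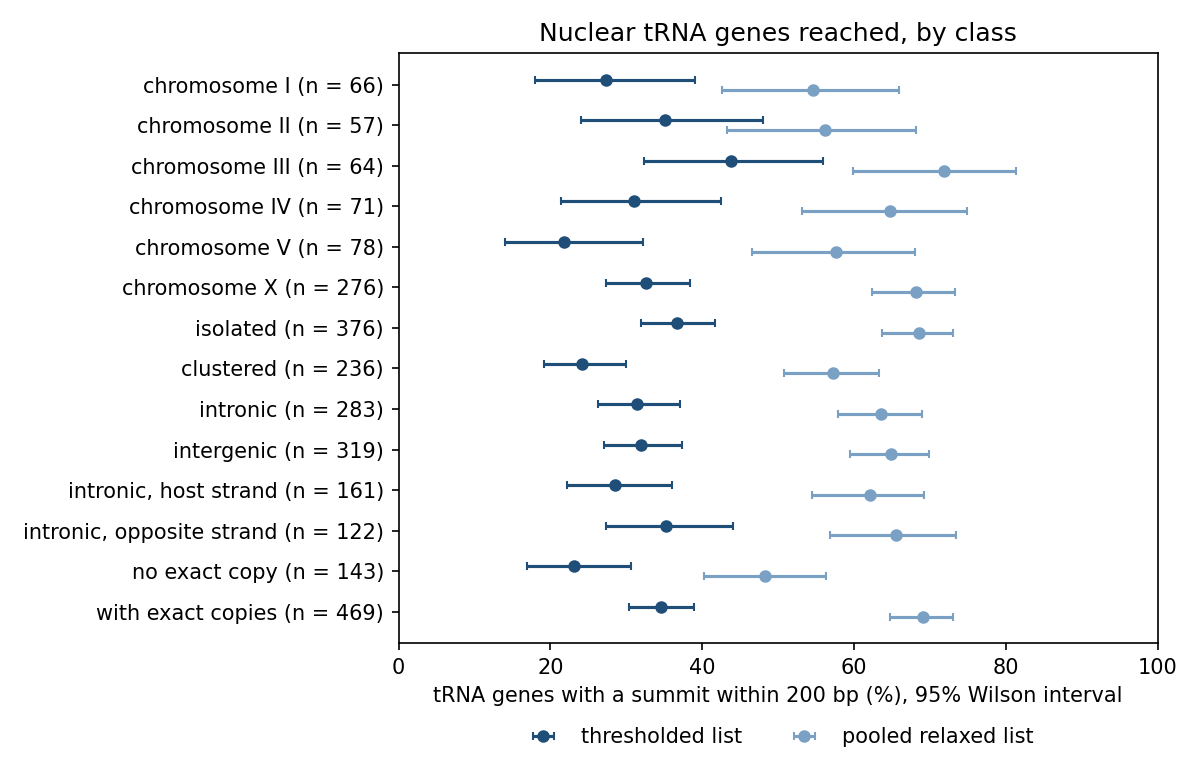
Share of tRNA genes reached (horizontal axis, percent) in the thresholded list and the pooled relaxed list, by chromosome, spacing, place, strand and copy number, with 95% Wilson intervals as bars and the number of genes beside each class. Isolated genes stand above clustered ones in both lists (36.7% and 24.2% in the thresholded list), and intronic and intergenic genes lie together at 31.4% and 32.0%.

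Summits at tRNA genes made up a visible part of the non-promoter peaks. Of the 184 summits 49 lay in a protein-coding promoter window (26.6%, 20.8 to 33.4%), against 65.8% of the whole list. The 5′ end of the tRNA gene itself lay in such a window for 139 of the 612 genes. Of these 139 genes, 52 were reached (37.4%, 29.8 to 45.7%), and of the 473 others 143 (30.2%, 26.3 to 34.5%). Of the 1246 thresholded summits outside promoter windows, 135 were at tRNA genes (10.8%, 9.23 to 12.7%). That share was 14.5% (72 of 498) for those inside protein-coding genes and 8.42% (63 of 748) for those between them. On X it was 22.2% (67 of 302, 17.9 to 27.2%), and on the other chromosomes it ran from 5.77% on I to 8.85% on III. X also held 15.6 tRNA genes per Mb, against 3.73 to 4.64 per Mb on the other chromosomes. The share of tRNA genes reached was 32.6% on X and 21.8 to 43.8% elsewhere.

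Both replicates held nearly every reached gene. The thresholded list is made from these same replicates, so this describes the list and is no independent support. Of the 195 genes, 194 had a relaxed summit in both, and 168 had one among the 3641 strongest regions of each. Over 183 distinct pairs of summits at thresholded genes Spearman's rho of the signal values was 0.770, and over all 317 pairs 0.886. The paired summits lay a median of 14 bp apart at thresholded genes and 21 bp apart over all.

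**Figure D4:**
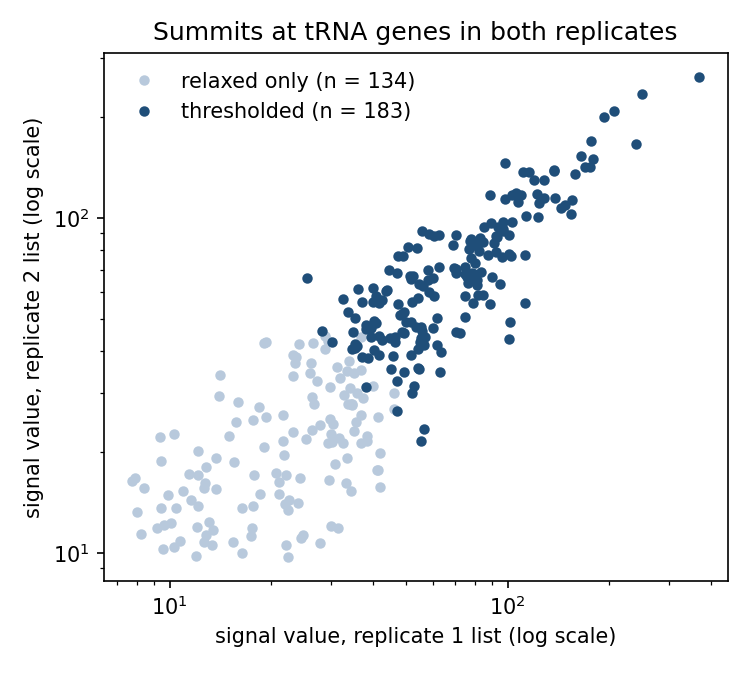
Signal value in the replicate 1 list (horizontal axis, log scale) against the replicate 2 list (vertical axis, log scale), 1 point for each of 317 distinct pairs of summits at tRNA genes, 183 of them at thresholded genes (dark) and the other 134 at genes with relaxed summits only (light). The dark points lie above and to the right of most light points, and the highest, at 369 and 263, belongs to C28G1.t1. Thresholded regions are the 3641 strongest of the list pooled from these replicates, so their higher place follows from that choice.

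The strongest summit at a tRNA gene belonged to C28G1.t1, a tRNA-Glu gene on X (8836113 to 8836184, plus strand). It ranked 184 with a signal value of 624 in the thresholded list, 143 with 369 in replicate 1 and 246 with 263 in replicate 2. It lay 115 bp upstream of the gene, inside the promoter windows of C28G1.2 and of sec-15, which encodes an exocyst subunit.

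Divergent pairs shared the summits ranked 320, 400 and 594. M02F4.t1 (tRNA-Gly, X, 3036164 to 3036235) and M02F4.t2 (tRNA-Glu, 3035976 to 3036047) shared a summit ranked 320 with a signal value of 476, 250 in replicate 1 and 234 in replicate 2. It lay 48 bp upstream of the first gene and 69 bp upstream of the second. F46G11.t1 and F46G11.t2, divergent tRNA-Pro genes with identical sequence, shared a summit ranked 400 (417 in the thresholded list, 206 in replicate 1, 208 in replicate 2), 138 and 52 bp upstream of their 5′ ends. The tRNA-Ser genes C53C7.t1 and C53C7.t2 shared a summit ranked 594, 49 and 82 bp upstream of them, with 335 in the thresholded list, 177 in replicate 1 and 170 in replicate 2. In all 3 pairs the replicates placed the summit between the genes.

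Among isolated genes, C33G3.t2 (tRNA-Lys, X) had its summit 32 bp upstream at rank 424, with signal values of 406, and of 240 and 166 in replicates 1 and 2. F41D9.t3 (tRNA-Asn, X), in an intron of sulp-3, a sulfate permease family gene read on the opposite strand, ranked 440 with its summit 47 bp upstream. T28B4.t1 (tRNA-Phe, X), in an intron of fbxl-4 on the same strand, ranked 620 with its summit 19 bp upstream. C04A11.t1 (tRNA-Leu, X), which has no exact copy, ranked 664, and the summit lay 17 bp upstream in the thresholded list and in both replicate lists. C04E7.t1 (tRNA-Leu) ranked 681 with its summit 62 bp upstream, and C42D8.t1 (tRNA-Ile) ranked 699 with its summit 18 bp upstream. Over these 6 genes the replicate 1 summits lay 17 to 70 bp upstream and the replicate 2 summits 17 to 47 bp upstream.

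X held 276 of the 612 tRNA genes and 90 of the 195 reached ones. Among the 20 strongest tRNA genes, the summits ranked 320, 400 and 594 each counted for 2 genes on X. The last place was a tie at rank 914 between F15G9.t1, which was counted, and F15G9.t2. Of the 20 strongest tRNA genes 17 lay on X. The others were F57F5.t1 (tRNA-Ile, V, rank 624, 33 bp upstream), which has no exact copy and whose summit also lies in promoter windows of cpr-9 and gcy-33, F47G6.t1 (tRNA-Arg, I, rank 783, 61 bp upstream), in an intron of the myosin gene spe-15, and K11H12.t1. K11H12.t1 (tRNA-Sec, IV, 658181 to 658266) brings selenocysteine into protein. Its summit ranked 906 with a signal value of 257, and of 120 in replicate 1 and 129 in replicate 2. It lay 58 bp upstream in the thresholded list, in an intron and the promoter window of K11H12.8. The strongest on III was the summit shared by W09D6.t1 and W09D6.t2 (both tRNA-Pro, rank 915) in an intron of rsa-2, and on II that shared by W09G10.t2 (tRNA-Lys) and W09G10.t3 (tRNA-Thr) at rank 944, in a promoter window of the lectin gene clec-126.

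Further summits among the strongest served R11.t1 (tRNA-Tyr, rank 841, 65 bp upstream), the only reached gene in a cluster of 4 tRNA-Tyr genes, R04A9.t1 (tRNA-Gln, rank 863, 116 bp upstream, in the promoter window of its host ZK1193.2) and C06G1.t1 (tRNA-His, rank 869, 26 bp upstream). F15G9.t1 (tRNA-Ala, rank 914), in an intron of the hemicentin gene him-4, was an exception in position: its summit lay 56 bp downstream of its 5′ end, in the gene body, and 102 bp upstream of its neighbour F15G9.t2.

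A list of protein-coding genes drawn up for tRNA transcription and maturation was examined beside the tRNA genes. Of 41 names 37 matched the annotation, and 10 of these had a thresholded summit in the promoter window (27.0%, 15.4 to 43.0%), against 15.5% of protein-coding genes; the interval reaches down to that level. Of the transcription apparatus, tftc-1 (a TFIIIC subunit) had one at rank 859, rpac-19 (a subunit shared by polymerases I and III) at 1810, snpc-4 (of the snRNA activating complex) at 1875 and mafr-1 (the MAF1 repressor of polymerase III) at 1493. The TFIIIB gene brf-1, tbp-1, the polymerase subunit genes rpc-1 and rpc-2 and the TFIIIC genes tftc-3 and tftc-5 had none. The other matched transcription genes, rpc-11, rpac-40, snpc-1.1 and snpc-3.1, had none either. Of the maturation genes, elpc-4 (rank 571) and elpc-2 (1346) encode Elongator subunits, which modify wobble uridines, trm-1 (1315) a tRNA methyltransferase, pus-1 (1362) a pseudouridine synthase and xpo-3 (2403) the tRNA exporter. rtcb-1 (2035) encodes the RNA ligase that joins tRNA exons after splicing and also the spliced xbp-1 mRNA. The other maturation genes had no promoter summit. They were elpc-1 and elpc-3, also of Elongator, and hoe-1, hpo-31, arch-1, tsen-2, tsen-34, tsen-54, clpf-1, nsun-2, alkb-8, tut-1, tgt-1, tgt-2, popl-1 and popl-4. The list also held trcs-1, which had no promoter summit and is counted among the 37. The sources used here do not show that trcs-1 acts in tRNA maturation.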

How the data were processed

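The deposited lists are region files on ce11 (the same assembly as WBcel235) for replicate 1, replicate 2, both pooled, and the thresholded list kept by the irreproducible discovery rate, as the lists of files in the deposited notes state. The aligner and peak caller, not given in the sources used here, may treat reads that match several places in different ways. Column 7 is a score (signal value) that the authors' caller assigned; it served to rank regions within a list. The summit was the region's start plus column 10.

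Genes came from Ensembl release 115 and sequences and amino acids from RefSeq. Intronic genes lay wholly in an intron of a protein-coding transcript and overlapped no coding gene's exon. Shares have 95% Wilson intervals; a count of 0 is given the limit of 3 counts. With 1 group and no control used, no test was run. Work was done in Python 3.11.15 with numpy 2.4.6, scipy 1.17.1 and matplotlib 3.10.9, and the counting steps were tested on simulated data. Named tRNA genes are the 20 with the strongest thresholded summit, the strongest of each chromosome and class, genes sharing their summits, and the largest clusters. Members and lists were chosen with earlier results of these data known. Alternatives were other window flanks and cluster gaps, fewer regions, each replicate alone, overlap in place of summits, summits outside promoter windows, and genes without copies. The lists on the older build ce10 were not used.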

Additional observations from a re-analysis of the deposited data

How the results depend on the processing

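Of 57 values under 10 alternative settings, 31 stayed within the interval of the reported share (for positions and ranks, within the SD between the replicates) and 26 moved outside it; no summit position changed side. With the strongest 1820 thresholded regions, which are fewer by construction, the share reached was 13.4% of all tRNA genes, 15.4% of isolated, 10.2% of clustered, 14.8% of intronic and 12.2% of intergenic ones, with a median rank of 1335. With summits outside promoter windows only, these shares were 23.4%, 26.1%, 19.1%, 25.8% and 21.3%, and the median rank 1904. With genes that have no exact copy, they were 23.1%, 26%, 16.3%, 18.2% and 27.0%, the pooled relaxed share was 48.3%, the median position from the nearest such gene -30.5 bp and the median rank 2513.5; the cause was not tested. With 100 bp and 500 bp on either side the pooled relaxed share was 59.2% and 72.9%, and the share reached in both replicates 49.3% and 63.7%, as the window shrinks or grows; with any overlap the pooled relaxed share was 69.6%. When each replicate in turn was left out, by taking the 3641 strongest regions of the other, the shares ranged from 31.0 to 32.7% (all), 36.2 to 36.4% (isolated), 22.9 to 26.7% (clustered), 31.8 to 32.5% (intronic) and 29.8 to 32.9% (intergenic). In the same settings the median position ranged from -25.5 to -20 bp, the median rank from 2023.5 to 2098, and the share of tRNA summits in promoter windows from 24.9 to 27.0%. Isolated genes stayed above clustered ones in all of these settings in which both were computed. Intronic genes stood above intergenic ones with the strongest 1820 regions, with summits outside promoter windows and without replicate 2, and below them otherwise. No paired analysis was possible because there is 1 group. Depth is unknown, and no control was used here.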

Other observations

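Words in the 60 bp before the gene, on the gene's strand, were compared after the values had been seen, over all 3807 words of 6 letters that occurred, and no test was run. The words with the largest excess at the 195 reached genes over 149 distinct stretches of genes in no list were mostly runs of C and T. TCTCTC was present upstream of 28 reached genes (14.4%) and in 2 of the stretches without a summit (1.34%), against 1.56% of consecutive genome windows of 60 bp. CTCTCT, which overlaps it, was present upstream of 21 (10.8%) and 1 (0.671%), against 1.26%. The longer repeat GAGAGAGA, which reads TCTCTCTC on the other strand, was no more frequent around tRNA summits (3.26%) than in the whole list (6.62%). ATGTCT was present upstream of 23 (11.8%) and 3 (2.01%), against 1.27%. Words of A and T went the other way: AATTTT was present upstream of 4 reached genes (2.05%) and in 27 stretches without a summit (18.1%), where genome windows held it in 18.2%, and AAAAAT in 1 (0.513%) and 23 (15.4%), against 19.4%. These words were picked for their difference, so their counts are a description.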
